A study of Mus musculus with 9 samples.

Results

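The genes described here encode the proteins that dock, prime, fuse and recycle synaptic vesicles, the organelles from which neurons release transmitter. They were 35 of the 54838 genes in the deposited count table and were taken by symbol: synaptotagmins, SNARE proteins and their regulators, Rab3 GTPases, vesicle membrane proteins and synapsins, and endocytic genes. All 35 were found, and 34 passed the filter on low counts that left 16410 genes for testing. The exception was Sv2c.

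The libraries came from mouse brain neurons cut out by laser-capture microdissection and made with Smart-3SEQ, a protocol that counts transcripts by their 3′ ends. By its title, the study is about how the paraventricular hypothalamus sorts pain of inner organs and of the body surface. There were 3 groups with 3 libraries in each: overlap cells, which by their name carry both labels, cfos cells, named after the protein of the activity gene Fos, and mCherry cells, named after a red fluorescent protein. The design text lists cells labelled by CRD, by VFF and by both, without saying which of the 2 the cfos or the mCherry label stands for. The labels call the libraries biological replicates but give no strain, age, treatment time, number of animals or number of cells per library, so it is not known whether each came from its own animal.

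A vesicle fuses when the vesicle protein VAMP2 (synaptobrevin) zips up with syntaxin 1 and SNAP-25 on the plasma membrane, which together form the SNARE complex. Synaptotagmins sense the calcium that triggers fusion, complexins clamp and then support the assembled complex, and NSF with its SNAP adaptors takes it apart again. Synapsins tether vesicles in reserve, and dynamin, amphiphysin and synaptojanin retrieve the membrane. In the paraventricular hypothalamus the same machinery serves fast transmission by neurons that also release peptides from dense-core granules.

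The libraries were not all independent. The column cfos 2 was at or below cfos 3 in every gene, and the pair differed by less than sampling noise: its chi-square was 0.824 per gene, while the other 35 pairs of columns had 9.08 to 58.5. Their mean was counted as 1 sample, written cfos 2+3, which leaves n = 3 overlap, n = 2 cfos and n = 3 mCherry. The column mCherry 2 never exceeded the sum of mCherry 1 and mCherry 3, so it may share their reads. It was kept, and for the comparisons with mCherry the counts of genes below 0, at an unadjusted p under 0.05, separated or called by DESeq2 and limma-voom are also given without it. Total counts were 504785 to 597898 in overlap, 700556 to 3414593 in cfos and 877257 to 978877 in mCherry. Fos RNA, a limited check of the cfos label, stood at 72.4 to 282 CPM (the CPM unit of edgeR, a count divided by the TMM-scaled library size) in overlap. It was 286 CPM in cfos 1 but 24.7 CPM in cfos 2+3, and 11.3 to 30.9 CPM in mCherry. Each direction that involves cfos therefore rests on 1 library with high and 1 averaged pair with low Fos RNA.

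Windows around the transcription start of 27 of the 35 genes were available from RefSeq (35 windows, build GRCm38.p6, 250 bases before to 50 after the start), which leaves Bin1, Dnajc5, Snap25, Syn3, Syngr3, Syt4, Syt7 and Vamp2. Shown are those of Cplx1 and Cplx2, the complexin paralogs whose proportion was set apart in overlap, and of Syngr1 and Sncb, both with lower values in overlap than in either other group; they were chosen after their values were seen. Capitals mark the GC box (GGGCGG) and the Egr site (GCGGGGGCG) on either strand; where they overlap, the capitals run together. The windows are chr5:108549978-108550277 (minus strand), chr13:54302306-54302605 (plus), chr15:80091084-80091383 (plus) and chr13:54766546-54766845 (minus), in this order.
Cplx1: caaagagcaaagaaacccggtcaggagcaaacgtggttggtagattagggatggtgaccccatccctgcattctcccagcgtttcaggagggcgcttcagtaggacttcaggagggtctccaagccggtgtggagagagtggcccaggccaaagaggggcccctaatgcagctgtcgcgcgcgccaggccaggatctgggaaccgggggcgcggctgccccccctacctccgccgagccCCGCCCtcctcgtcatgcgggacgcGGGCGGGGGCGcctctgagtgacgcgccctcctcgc
Cplx2: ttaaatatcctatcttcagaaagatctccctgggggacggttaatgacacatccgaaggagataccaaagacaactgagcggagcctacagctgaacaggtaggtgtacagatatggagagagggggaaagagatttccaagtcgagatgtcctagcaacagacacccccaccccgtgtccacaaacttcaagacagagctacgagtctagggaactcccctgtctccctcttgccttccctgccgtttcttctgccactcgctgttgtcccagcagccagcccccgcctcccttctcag
Syngr1: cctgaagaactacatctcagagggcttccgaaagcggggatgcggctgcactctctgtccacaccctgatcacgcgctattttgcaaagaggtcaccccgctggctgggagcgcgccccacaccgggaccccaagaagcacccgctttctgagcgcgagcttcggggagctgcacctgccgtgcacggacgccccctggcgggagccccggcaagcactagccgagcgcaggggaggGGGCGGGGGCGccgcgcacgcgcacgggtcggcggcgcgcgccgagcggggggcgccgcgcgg
Sncb: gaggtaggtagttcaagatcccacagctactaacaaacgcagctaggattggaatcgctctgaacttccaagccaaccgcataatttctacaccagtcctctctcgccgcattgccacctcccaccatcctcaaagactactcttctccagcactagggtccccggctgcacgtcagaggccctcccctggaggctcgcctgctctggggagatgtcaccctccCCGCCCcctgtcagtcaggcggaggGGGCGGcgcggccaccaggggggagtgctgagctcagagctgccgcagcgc
The Cplx1 window held 2 GC boxes and 1 Egr site and was 67.0% G or C, while the Cplx2 window held neither motif and was 53.3% G or C. The RefSeq start of Cplx2 lies upstream of the GENCODE gene, which begins at 54371349, so this window may not be the start used in these cells. Over all windows of these genes, 23 of 35 held a GC box (65.7%, against 35.7% of 32851 mouse windows) and 4 held the Egr site (11.4%, against 2.91%). The 4 with the Egr site were Cplx1, Stxbp5, Syn2 and Syngr1. The full cyclic AMP response element (TGACGTCA), searched on both strands, was in 2 windows (5.71%, against 1.79%), those of Napa and Syn1. Its shorter form TGACG was in 10 windows (28.6%, against 20.8%). Other motifs were less frequent than in all windows. The CCAAT box was in 8 windows (22.9%, against 37.4%) and the TATA box (TATAAA) in 3 (8.57%, against 13.6%). The AP-1 site (TGANTCA, with N any base) was in 1 window, that of Syt2 (2.86%, against 7.81%). The windows of these genes had a median of 19 CG pairs, against 7 in all windows. These are matches of letters and say nothing of binding.

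Summed over the 35 genes, overlap libraries held the least vesicle-gene RNA relative to library size. The sum was 2730, 3430 and 3251 CPM in overlap 1, 2 and 3. It was 6527 and 5251 CPM in cfos 1 and cfos 2+3, and 4167, 4454 and 4204 CPM in mCherry 1, 2 and 3. No overlap library reached the lowest value of either other group. Over the 34 tested genes, the ratio of the mean sums was 0.533 for overlap over cfos, 0.733 for overlap over mCherry and 1.38 for cfos over mCherry. As CPM, these values are relative to the other RNA of a library and give no amount per cell. A lower level per cell and a different mix of captured material cannot be told apart in such libraries.

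General neuronal RNA was also lowest in overlap. A list of 12 neuron markers, among them Map2, Tubb3 and Nefl, summed to 1399 to 2133 CPM in overlap, 3294 to 5667 CPM in cfos and 2588 to 3301 CPM in mCherry, with none of the 12 at 0 in any library. Per unit of neuron marker RNA, the vesicle genes stood at 1.83 ± 0.428 in overlap (SD, n = 3), 1.37 ± 0.313 in cfos (SD, n = 2) and 1.47 ± 0.187 in mCherry (SD, n = 3), so that on this scale overlap was not the lowest group. The ranges overlapped, since mCherry 3 had 1.62 and overlap 1 had 1.56. Without Map1b, the most abundant marker, the ratios were 2.43, 2.09 and 2.32 in overlap, cfos and mCherry.

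**Figure D1:**
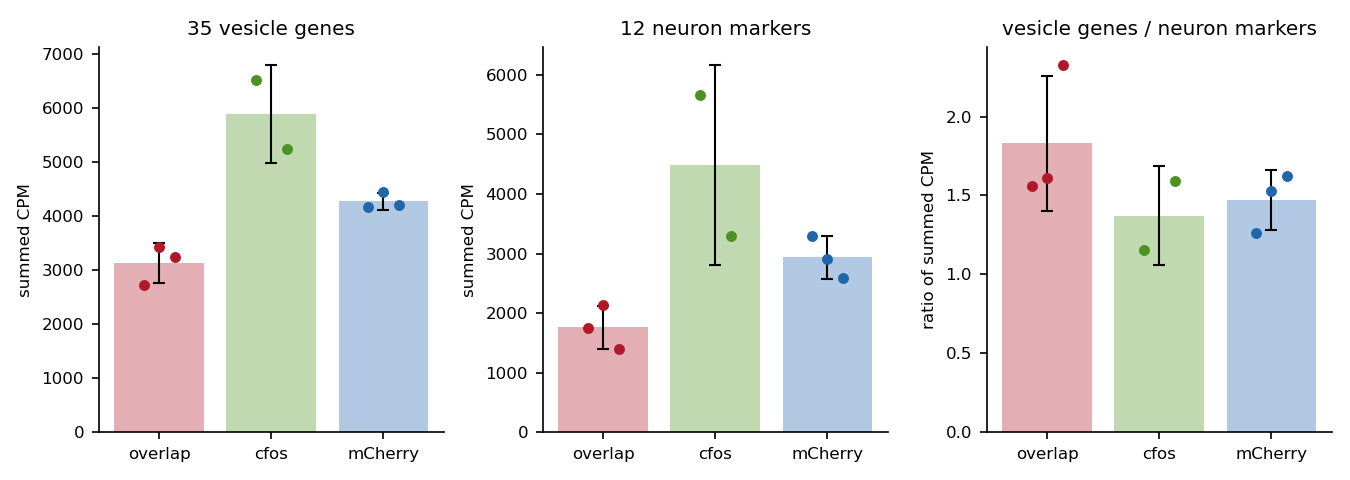
Summed CPM of the 35 vesicle genes (left) and of 12 neuron markers (middle), and their ratio (right), in overlap, cfos and mCherry. Points are libraries, bars are means and error bars SD (n = 3, 2 and 3); overlap is lowest in both sums and not in the ratio.

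Markers of other cells were also unequal between groups. Oligodendrocyte markers (9 genes) summed to 402 to 1760 CPM in overlap, 4750 to 6802 CPM in cfos and 1278 to 2411 CPM in mCherry. Their defining genes Mog and Opalin were at 0 in 3 and 7 of the 8 replicates. Astrocyte markers (9 genes) summed to 885 to 1112 CPM in overlap, 1572 to 4161 CPM in cfos and 1078 to 1271 CPM in mCherry. Microglial markers (7 genes) summed to 156 to 248 CPM in overlap, 102 to 104 CPM in cfos and 89.7 to 158 CPM in mCherry, with Tmem119 at 0 in 6 of the 8. Endothelial and mural markers (6 genes) summed to 461 to 641 CPM in overlap, 399.7 to 492 CPM in cfos and 299.7 to 320.2 CPM in mCherry. Markers of the paraventricular nucleus (6 genes) summed to 230 to 1439 CPM in overlap, 592 to 648 CPM in cfos and 148 to 448 CPM in mCherry. Of these, Otp, Avp and Crh were at 0 in 1 library each, all in mCherry. Sim1, Oxt and Trh were above 0 in every library, and Oxt had 111, 305 and 398 CPM in mCherry. The part of these cells in the vesicle-gene values was not tested.

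The first comparison set overlap against mCherry. Of the 34 vesicle genes tested, 26 had a lower fitted level in overlap, against 47.7% of all genes. Their median log2 fold change was -0.67, beside 0.09 over all genes tested. The calcium sensor Syt1, the synuclein Sncb and the vesicle protein Syngr1 were about 3- to 4-fold lower. By edgeR's quasi-likelihood test 0 of the 34 passed an adjusted p of 0.05, as did 0% of all genes. DESeq2 called 3 of the 34 (Syt1, Sncb and Syngr1, all lower) but 0 without mCherry 2, and limma-voom called 0 either way. With all replicates both tools also called genes across the whole table, and these totals are given with the processing settings at the end. At an unadjusted p under 0.05, DESeq2 had 7 of the 34 lower and 0 higher, against 6.99% and 11.3% of all genes. Limma-voom had 7 and 0, against 8.9% and 16.7%. By edgeR 3 were lower and 0 higher at that p, against 4.9% and 10.1% of all genes. Without mCherry 2, 29 of 34 were below 0 (against 50.6% of all genes), and 3 were lower and 0 higher at that p. Over all genes, 2457 had such a p with mCherry 2 and 983 without it, or 1.94% lower and 4.49% higher. The 3 overlap libraries all lay below the 3 mCherry libraries in 11 of the 34 (32.4%, against 8.88% of all genes) and all above them in 0 (against 13.5%). Without mCherry 2 the separated genes were again 11 and 0 (against 9.32% and 14.0%). The 12 neuron markers had a median of -0.51, with 11 below 0.

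Overlap was compared with cfos in the same way. Here 29 of 34 vesicle genes had a lower fitted level in overlap, against 45.4% of all genes. Their median was -1.15 on the log2 scale, beside 0.12 over all genes. By edgeR 0 passed the adjusted threshold, as did 0% of all genes, and at an unadjusted p under 0.05 there were 8 lower and 0 higher, against 3.14% and 8.69% of all genes. The 8 became 5 without overlap 1 (against 3.42% of all genes lower and 6.5% higher) and 5 without mCherry 2 (1.8% and 6.53%). They became 10 without overlap 2 (3.26% and 7.04%). Each of these had 0 higher. Over all left-out replicates, cfos 1 included, the median of the vesicle genes stayed between -1.245 and -0.977. Overlap lay wholly below cfos in 16 (47.1%, against 12% of all genes) and wholly above it in 1, Syt2 (against 13.6%). DESeq2 called 5 of the 34, all lower (Syt1, Sncb, Syngr1, Snap25 and Syn2), of which Syt1 remained without mCherry 2, and limma-voom called 0. The DESeq2 calls over all genes are again given at the end. At an unadjusted p under 0.05, DESeq2 had 11 of the 34 lower and 2 higher, against 4.69% and 12.6% of all genes. Limma-voom had 12 and 1, against 6% and 8.26%. All 12 neuron markers had lower fitted values too, with a median of -1.28. Since both comparisons use the same overlap libraries, they are not independent.

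Cfos was compared with mCherry last. Of the 34, 26 had a higher fitted level in cfos and 8 a lower one, against 47.7% of all genes that were lower. The median was 0.48 on the log2 scale, beside 0.04 over all genes. By edgeR 0 passed, as did 0% of all genes, and at an unadjusted p under 0.05 there were 3 higher (7.49% of all genes) and 1 lower (10.2%), where 17.7% of all genes were past it in either direction. Without mCherry 2 there were 25 above 0 and 9 below, and 0 past that p in either direction, against 2.76% higher and 6.55% lower of all genes. Cfos lay wholly above mCherry in 8 (23.5%, against 18.5% of all genes) and wholly below in 2, Syt2 and Stx1a (5.88%, against 14.2%). Without mCherry 2 these were 9 and 2 (against 19.4% and 14.6% of all genes). The count above mCherry depended on single libraries: cfos 1 alone, without cfos 2+3, lay above mCherry in 23 (67.6%, against 33.2% of all genes), cfos 2+3 alone in 11 (32.4%, against 35.7%), and both cfos replicates in 13 without mCherry 1 (38.2%, against 24.7%). DESeq2 called Syn2 as higher and Syn3 as lower in cfos, and limma-voom called Syn2, Sv2a and Synj1 as higher. By these tools 1521 and 2138 of 16410 genes passed, a larger share than the 2 and 3 of the 34. Without mCherry 2 both tools called 0 of the 34, where DESeq2 called 533 and limma-voom 0 of 15274 genes. The median of the 34 was 0.12 without cfos 1, the library with the highest sum.

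**Figure D2:**
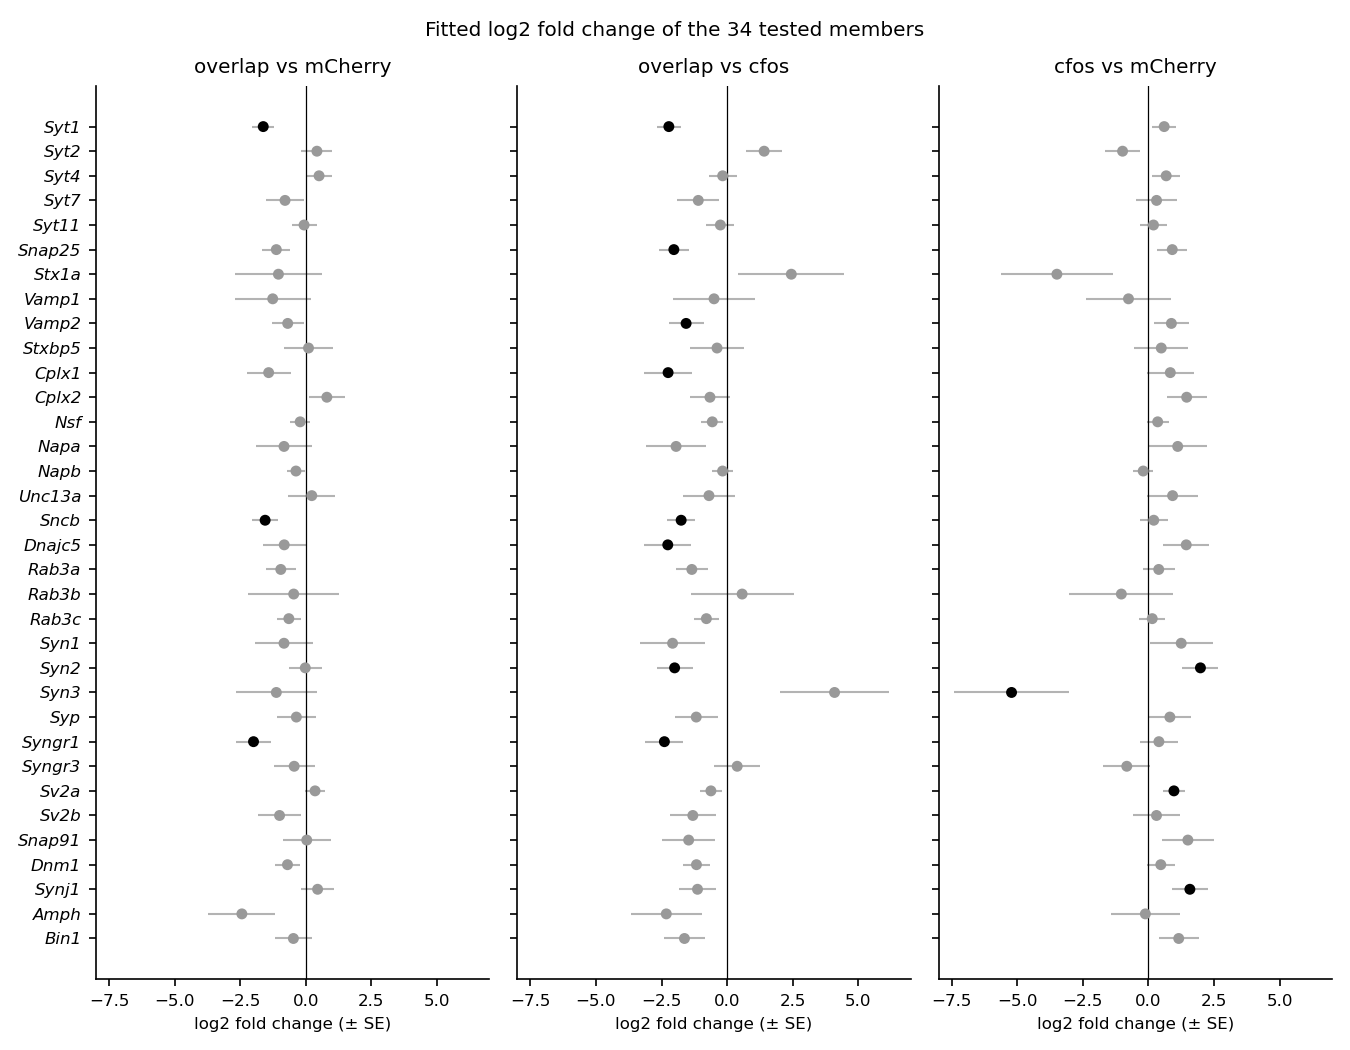
Fitted log2 fold change with its SE (horizontal bars) for the 34 tested vesicle genes in overlap versus mCherry, overlap versus cfos and cfos versus mCherry. Black points have an unadjusted p under 0.05 (3, 8 and 4 genes) and none passed by edgeR after adjustment over 16410 genes.

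Among the calcium sensors, Syt1 had the lowest p of any vesicle gene. Syt1 (ENSMUSG00000035864, chromosome 10, 108497650 to 109010982, minus strand, GRCm38), the sensor for fast synchronous release, had 135.8, 65.3 and 122 CPM in overlap. Cfos had 654 and 353 CPM and mCherry had 387, 331 and 277 CPM. The highest overlap library was below the lowest library of the other groups. The log2 fold change was -2.22 (SE 0.46, unadjusted p = 0.000701) for overlap against cfos, or 4.66-fold lower, and -1.62 (SE 0.42, unadjusted p = 0.00335) against mCherry, or 3.08-fold lower. By edgeR the adjusted p was 0.347 and 0.257. DESeq2 called both (adjusted p = 0.00164 and 0.00663, with ranges of 0.00164 to 0.591 and 0.00663 to 0.87 over the alternatives). Without mCherry 2 the DESeq2 adjusted p was 0.0132 against cfos and 0.0808 against mCherry. Between cfos and mCherry the log2 fold change was 0.60 (SE 0.45).

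Syt2, the sensor for fast release that stands in for Syt1 at many hindbrain and spinal synapses, had the opposite order. It was at 117.7, 85.3 and 172.8 CPM in overlap, 50.5 and 43.5 CPM in cfos, and 78.9, 83.8 and 117 CPM in mCherry. Overlap lay wholly above cfos and overlapped mCherry. As a share of the counts of this pair, which does not depend on library scaling, Syt1 held 53.6%, 43.4% and 41.4% in overlap. It held 92.8% and 89.0% in cfos and 83.1%, 79.8% and 70.4% in mCherry. The Wilson 95% interval of the highest overlap library reached 61.6%, and that of the lowest mCherry library began at 65.7%. The difference of means was -31.6 percentage points against mCherry (exact permutation test, two-sided, p = 0.1, the smallest that 3 against 3 can give) and -44.8 points against cfos (exact permutation p = 0.2, the smallest that 3 against 2 can give). The test against mCherry counted mCherry 2 as its own replicate, although it may share reads with the others. Without it, 3 against 2 would remain, where 0.2 is the smallest p. Leaving out any 1 replicate gave -35.3 to -29.0 points against mCherry. This pair was added to the paralog shares after its values had been seen.

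The other synaptotagmins of the 35 genes, Syt4, Syt7 and Syt11, overlapped between groups. Syt11, which lacks calcium binding, had the highest mean CPM of the group, at 297, 399 and 659 CPM in overlap, 391 and 686 CPM in cfos, and 219, 511 and 686 CPM in mCherry. Its log2 fold changes were -0.26 (SE 0.53), -0.06 (SE 0.48) and 0.19 (SE 0.53) for overlap against cfos, overlap against mCherry and cfos against mCherry, within the spread between libraries. Syt7, a slower sensor with high calcium affinity, ran from 42.1 to 205 CPM in overlap, 178 to 376 CPM in cfos and 65.5 to 370 CPM in mCherry. Syt4, known from dense-core vesicles, ran from 120.1 to 252 CPM in overlap, 142 to 283 CPM in cfos and 109 to 153 CPM in mCherry.

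**Figure D3:**
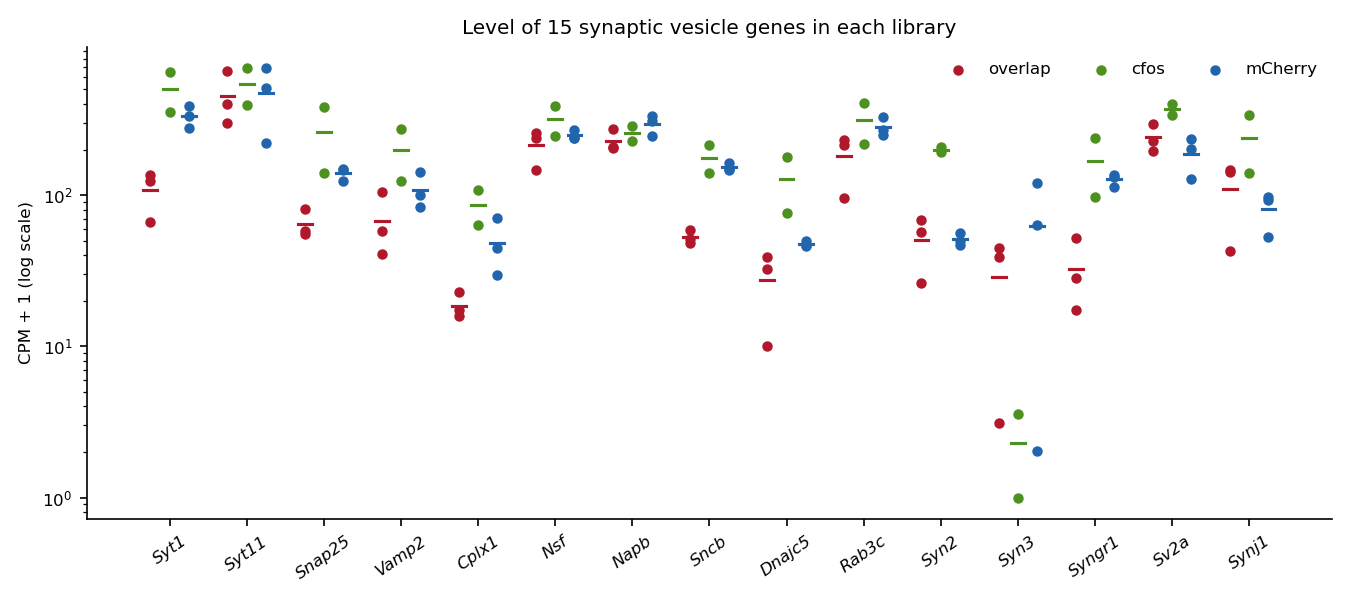
CPM plus 1 on a log axis for the 15 vesicle genes with an unadjusted p under 0.05 in a comparison or among the 6 highest mean CPM. Points are libraries and short lines group means in overlap, cfos and mCherry; Syt1, Snap25, Cplx1, Sncb, Dnajc5 and Syngr1 have all overlap points below all others.

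Of the SNARE genes, Snap25, the plasma membrane SNARE, had lower values in overlap than in either group. It stood at 54.3, 79.8 and 56.9 CPM in overlap, 383 and 139 CPM in cfos, and 147, 146 and 123 CPM in mCherry, without overlap of the ranges. On the log2 scale the fitted difference was -2.03 (SE 0.58, unadjusted p = 0.00567) against cfos and -1.12 (SE 0.53, unadjusted p = 0.0602) against mCherry, and 0.91 (SE 0.57) for cfos against mCherry. By edgeR the adjusted p was 0.354 and 0.351 in overlap against cfos and against mCherry. Without cfos 1, the library with the highest value, the difference was -1.17 against cfos, and 0.0149 for cfos against mCherry.

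Vamp2, the main vesicle SNARE of forebrain synapses, stood at 39.8, 103 and 56.9 CPM in overlap, 272 and 124 CPM in cfos, and 142, 99.2 and 81.8 CPM in mCherry. Overlap lay below cfos and overlapped mCherry through overlap 2. Its log2 fold change was -1.56 (SE 0.67, unadjusted p = 0.0415, edgeR adjusted p = 0.406) against cfos and -0.69 (SE 0.61) against mCherry. Without cfos 1 the difference from cfos was -0.92. Its paralog Vamp1 had at most 30.9 CPM in any replicate. Stx1a, the syntaxin partner of SNAP-25, varied widely from library to library: it had 0, 0 and 69 counts in overlap 1, 2 and 3, against 5, 19 and 28 counts in cfos 1, 2 and 3 and 139, 82 and 52 counts in mCherry. A count of 0 allows up to 3 counts, or 5.02 and 5.50 CPM in the first 2 overlap libraries by their total counts. Stx1a lies outside the rule for named genes and was chosen after its values were seen.

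The complexins, small proteins that bind the assembled SNARE complex, split between paralogs. Cplx1 (ENSMUSG00000033615, chromosome 5, 108518554 to 108550024, minus strand) stood at 16.3, 21.8 and 14.7 CPM in overlap, 107 and 62.3 CPM in cfos, and 69.3, 43.7 and 28.6 CPM in mCherry. All overlap values were below all others, on 9, 12 and 7 counts. In the fit, the log2 fold change was -2.25 (SE 0.91, unadjusted p = 0.033, edgeR adjusted p = 0.402) against cfos and -1.42 (SE 0.84, unadjusted p = 0.121) against mCherry. Cplx2 was at 48.9, 123 and 78.0 CPM in overlap, 157 and 106 CPM in cfos, and 71.5, 46.1 and 25.6 CPM in mCherry, so overlap overlapped both groups.

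Cplx1 made up a smaller part of complexin counts in overlap. Its share was 25.0%, 15.0% and 15.9% in overlap, on 36, 80 and 44 counts. It was 40.4% and 37.1% in cfos, and 49.2%, 48.7% and 52.8% in mCherry. The means were 18.6% ± 5.53 in overlap (SD, n = 3), 38.7% ± 2.38 in cfos (SD, n = 2) and 50.2% ± 2.25 in mCherry (SD, n = 3). The Wilson 95% intervals of overlap 1 (13.8% to 41.1%) and mCherry 1 (40.9% to 57.7%) overlapped slightly, so counting error is not small in single libraries. The differences were -20.1 points against cfos (exact permutation p = 0.2) and -31.6 points against mCherry (exact permutation p = 0.1), again the smallest p that these sizes allow. The test against mCherry again counted mCherry 2 as its own replicate. Leaving out any 1 replicate, mCherry 2 included, gave -34.8 to -29.8 points against mCherry and -23.3 to -18.3 against cfos. Shares were computed for 8 pairs or families in 3 comparisons, and after Benjamini-Hochberg adjustment over these 24 the smallest p was 0.436.

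**Figure D4:**
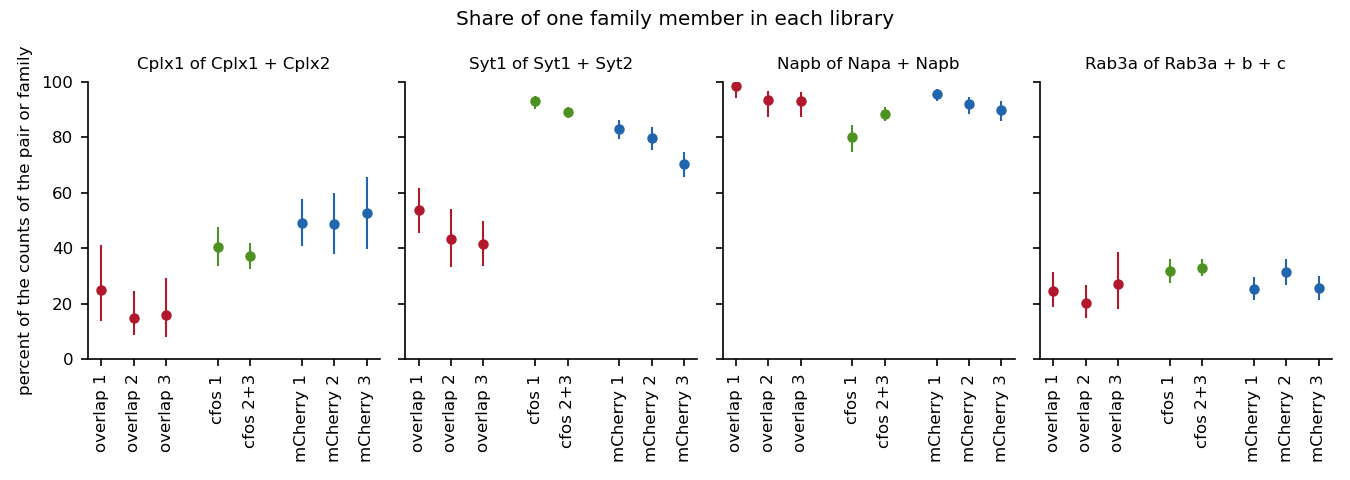
Share of 1 gene in the counts of its pair or family in each library, with Wilson 95% intervals that cover counting error only, for overlap, cfos and mCherry. Cplx1 and Syt1 shares are lower in every overlap library than in any cfos or mCherry library, and the Napb and Rab3a shares of overlap and mCherry overlap.

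The remaining paralog shares did not separate overlap from mCherry, while those of Napb and Rab3a separated overlap from cfos. Napb, the brain form of the NSF adaptor SNAP, held 94.8% ± 3.03 of Napa plus Napb counts in overlap, 84.2% ± 5.95 in cfos and 92.5% ± 2.95 in mCherry (SD, n = 3, 2 and 3). Rab3a held 23.9% ± 3.54 of Rab3a, Rab3b and Rab3c counts in overlap, 32.3% ± 0.949 in cfos and 27.4% ± 3.41 in mCherry. Vamp2 held 85.5% ± 15.7, 90.2% ± 13.1 and 79.9% ± 2.69 of Vamp1 plus Vamp2 counts in overlap, cfos and mCherry.

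Among the priming and disassembly genes, the ATPase Nsf and the adaptor Napb were close between groups. Nsf stood at 239, 258 and 145 CPM in overlap, 244 and 389 CPM in cfos, and 236, 239 and 270.1 CPM in mCherry. Its log2 fold changes were -0.57 (SE 0.42) for overlap against cfos, -0.21 (SE 0.38) against mCherry and 0.35 (SE 0.42) for cfos against mCherry. Napb stood at 208, 203 and 272 CPM in overlap, 286 and 228 CPM in cfos, and 331, 309 and 245 CPM in mCherry, with log2 fold changes of -0.17 (SE 0.39), -0.37 (SE 0.35) and -0.20 (SE 0.39) in the same order of comparisons. Both overlapped between all groups. Napa, the widely expressed SNAP, ran from 3.62 to 21.1 CPM in overlap, 29.8 to 71.5 CPM in cfos and 14.9 to 27.6 CPM in mCherry. Stxbp5, encoding tomosyn, which holds back SNARE assembly, ran from 19.0 to 79.8 CPM in overlap, 32.4 to 84.1 CPM in cfos and 18.4 to 61.9 CPM in mCherry. Unc13a, which primes vesicles, ran from 29.0 to 44.2 CPM in overlap, 35.8 to 78.5 CPM in cfos and 15.3 to 51.2 CPM in mCherry.

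Both chaperone-like genes had lower values in overlap. Sncb (ENSMUSG00000034891, chromosome 13, 54758860 to 54766595, minus strand), encoding beta-synuclein, a presynaptic relative of alpha-synuclein, had little spread within overlap and mCherry and more within cfos. It was at 47.1, 58.0 and 50.6 CPM in overlap, 212 and 139 CPM in cfos, and 148, 163 and 145 CPM in mCherry. EdgeR put the log2 fold change at -1.75 (SE 0.54, unadjusted p = 0.00919) against cfos and -1.55 (SE 0.50, unadjusted p = 0.0118) against mCherry, and the edgeR adjusted p was 0.356 and 0.27. For cfos against mCherry it was 0.20 (SE 0.54).

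Dnajc5, encoding cysteine string protein, which keeps SNAP-25 folded, was at 9.05, 38.1 and 31.6 CPM in overlap, 178 and 75.0 CPM in cfos, and 45.9, 48.4 and 45.0 CPM in mCherry. Overlap lay below both groups and cfos above mCherry. The log2 fold change was -2.26 (SE 0.90, unadjusted p = 0.0302, edgeR adjusted p = 0.402) against cfos and -0.82 (SE 0.81) against mCherry.

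The Rab3 GTPases, which bring vesicles to the release site, had negative fitted values in overlap against mCherry in 3 of 3. Rab3c stood at 232, 212 and 94.8 CPM in overlap, 405 and 217 CPM in cfos, and 325, 269 and 249 CPM in mCherry, so overlap lay below mCherry. Its log2 fold change was -0.79 (SE 0.49) against cfos and -0.64 (SE 0.45) against mCherry, and 0.14 (SE 0.49) for cfos against mCherry. Rab3a was at 77.8, 63.5 and 40.0 CPM in overlap, 188 and 120.2 CPM in cfos, and 109.9, 140.5 and 101 CPM in mCherry, also without overlap of ranges. Rab3b was at 0 in cfos 1 and mCherry 1 and at most 46.0 CPM elsewhere.

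Of the vesicle membrane genes, Syngr1 (ENSMUSG00000022415, chromosome 15, 80091334 to 80119501, plus strand), encoding synaptogyrin 1, had the lowest fitted value of the group in overlap. It stood at 16.3, 50.8 and 27.4 CPM in overlap, 237 and 95.5 CPM in cfos, and 131, 135 and 111 CPM in mCherry, with no overlap of ranges. On the log2 scale the fitted difference was -2.39 (SE 0.73, unadjusted p = 0.00817) against cfos and -1.99 (SE 0.68, unadjusted p = 0.0146) against mCherry, with edgeR adjusted p = 0.354 and 0.275. For cfos against mCherry it was 0.40 (SE 0.71). Its paralog Syngr3 differed more within groups, at 76.2 to 176 CPM in overlap, 43.5 to 157 CPM in cfos and 37.3 to 301 CPM in mCherry.

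Sv2a, a glycoprotein of all synaptic vesicles and the target of levetiracetam, had a fitted value above 0 for overlap against mCherry. It stood at 196, 296 and 228 CPM in overlap, 397 and 339 CPM in cfos, and 127, 199.6 and 235 CPM in mCherry. Cfos lay above both groups. In the fit, the log2 fold change was -0.62 (SE 0.42) for overlap against cfos, 0.36 (SE 0.38) for overlap against mCherry and 0.97 (SE 0.42, unadjusted p = 0.0436, edgeR adjusted p = 0.275) for cfos against mCherry. Sv2b ran from 12.7 to 143 CPM in overlap, 195 to 214 CPM in cfos and 60.8 to 258 CPM in mCherry. Sv2c, known mainly from the basal ganglia, had 4 counts over overlap, 0 in mCherry, and 7, 0 and 1 counts in cfos 1, 2 and 3.

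The synapsins each followed a pattern of their own. Syn2 was at 67.0, 56.2 and 25.3 CPM in overlap, 192 and 206 CPM in cfos, and 49.1, 55.5 and 46.0 CPM in mCherry, so that both cfos replicates stood above all others. EdgeR put the log2 fold change at -2.001 (SE 0.69, unadjusted p = 0.0158, edgeR adjusted p = 0.368) for overlap against cfos, 1.98 (SE 0.69, unadjusted p = 0.0161, edgeR adjusted p = 0.252) for cfos against mCherry, and -0.02 (SE 0.63) for overlap against mCherry. Syn2 shares 90 exon bases with Timp4 on the other strand, which had 29.0 to 94.3 CPM in overlap, 53.3 and 382 CPM in cfos 1 and cfos 2+3, and 42.7 to 52.2 CPM in mCherry. Without a known strand setting the reads of such pairs cannot be told apart. In all, 12 of the 35 genes share exon bases with a gene on the opposite strand (Syn1, Syn2, Syn3, Syp, Sv2b, Syt4, Syt7, Rab3a, Rab3b, Unc13a, Synj1 and Bin1).

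Syn3 had 21, 24 and 1 counts in overlap, 0, 4 and 9 counts in cfos 1, 2 and 3, and 112, 53 and 1 counts in mCherry. The high mCherry values came from mCherry 1 and mCherry 2, which may share reads. The log2 fold change was -5.22 (SE 2.19, unadjusted p = 0.0396, edgeR adjusted p = 0.27) for cfos against mCherry, and the ranges overlapped through mCherry 3. For overlap it was 4.10 (SE 2.08) against cfos and -1.12 (SE 1.54) against mCherry. Syn3 shares 1733 exon bases with Timp3 on the other strand, so the Syn3 values are uncertain. Timp3 was at 99.6, 23.6 and 52.7 CPM in overlap, 46.3 and 109 CPM in cfos, and 164, 111 and 32.7 CPM in mCherry. The pair shared its order of libraries within mCherry, but not within overlap, where Syn3 was highest and Timp3 lowest in overlap 2. Syn1 in overlap was carried by overlap 2, with 3.62, 81.6 and 6.32 CPM. It had 191 and 69.5 CPM in cfos, and 73.6, 53.1 and 36.8 CPM in mCherry. Synaptophysin (Syp), the most abundant vesicle protein, was at 23.5, 125 and 90.6 CPM in overlap, 72.9 and 287 CPM in cfos, and 99.2, 122 and 85.9 CPM in mCherry. Syn1 and Syp also lie outside the rule for named genes.

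Of the endocytic genes, 5 of 5 had fitted values below 0 in overlap against cfos, and 3 of 5 against mCherry. Synj1, the lipid phosphatase that uncoats vesicles, was at 41.6, 145 and 141 CPM in overlap, 139 and 338 CPM in cfos, and 91.7, 95.6 and 52.2 CPM in mCherry. On the log2 scale the fitted difference was 1.58 (SE 0.70, unadjusted p = 0.0474, edgeR adjusted p = 0.281) for cfos against mCherry, -1.13 (SE 0.70) for overlap against cfos and 0.45 (SE 0.64) for overlap against mCherry. Without cfos 2+3, the replicate with the highest value, the difference of cfos from mCherry was 0.46. Dnm1, the neuronal dynamin that pinches vesicles off, was at 70.6, 114 and 84.3 CPM in overlap, 250 and 154 CPM in cfos, and 116, 162 and 159 CPM in mCherry, lower in overlap without overlap of ranges. Amph, encoding amphiphysin, had 5, 4 and 0 counts in overlap against 26, 28 and 65 counts in cfos 1, 2 and 3 and 30, 30 and 23 counts in mCherry. Bin1, an amphiphysin relative that is also expressed by oligodendrocytes, was at 16.3, 63.5 and 90.6 CPM in overlap, 219 and 132 CPM in cfos, and 83.2, 79.1 and 73.7 CPM in mCherry. Snap91, a clathrin adaptor, ran from 10.9 to 65.3 CPM in overlap, 70.8 to 116 CPM in cfos and 22.5 to 50.1 CPM in mCherry.

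Other genes of the release and recycling pathway, 67 in the table of which 56 were tested, had medians of the same sign, smaller in both comparisons of overlap. The median log2 fold change was -0.67 for overlap against cfos (38 of 56 below 0), -0.30 for overlap against mCherry (33 of 56) and 0.51 for cfos against mCherry (16 of 56 below 0). By edgeR 0 of 56 passed in each comparison, as did 0% of all genes. At an unadjusted p under 0.05, 7 were lower and 0 higher in overlap against cfos (3.14% and 8.69% of all genes). There were 2 lower and 3 higher in overlap against mCherry (4.9% and 10.1% of all genes). In cfos against mCherry there were 1 lower and 4 higher (10.2% and 7.49% of all genes). Without mCherry 2, the counts in either direction were 4, 3 and 1 of 52. The shares of all genes were then 1.8%, 1.94% and 6.55% lower, and 6.53%, 4.49% and 2.76% higher. Ap2a2, a subunit of the clathrin adaptor AP-2, had higher fitted values in overlap and in cfos than in mCherry. It stood at 150.3, 187 and 284 CPM in overlap, 182 and 184 CPM in cfos, and 30.9, 37.8 and 35.8 CPM in mCherry, with mCherry wholly below. Its log2 fold change was 2.57 (SE 0.50, unadjusted p = 0.000474, edgeR adjusted p = 0.257) for overlap against mCherry and 2.39 (SE 0.53, unadjusted p = 0.00115, edgeR adjusted p = 0.174) for cfos against mCherry. In the same comparison with mCherry, Rab27a, a GTPase of secretory granules, averaged 45.2 CPM in overlap and 1.81 CPM in mCherry (log2 fold change 4.54, SE 1.47). Rph3a, encoding the Rab3 effector rabphilin, averaged 19.3 CPM in overlap and 140.3 CPM in mCherry (log2 fold change -2.84, SE 1.07). Pacsin1, a membrane-bending protein of endocytosis, averaged 32.6 CPM in overlap and 103 CPM in mCherry (log2 fold change -1.65, SE 0.74). None of these passed by edgeR. DESeq2 called 3 of the 56 in overlap against mCherry, Ap2a2, Rab27a and Rph3a, with adjusted p = 4.2e-05, 0.0225 and 0.0395 (ranges up to 0.87 for each over the alternatives). In cfos against mCherry it called 2 of the 56, where 1521 of 16410 genes passed, with Ap2a2 at 0.000575 (up to 0.657). Limma-voom called 3 of the 56 in overlap against mCherry, among them Ap2a2 and Rab27a. In cfos against mCherry it called 9, among them Ap2a2, where 2138 of 16410 genes passed. The calls over all genes in overlap against mCherry are given beside those of the pathway genes at the end. Pacsin1 had 0.114 to 0.87. Without mCherry 2, DESeq2 called Ap2a2 alone of the 52 tested (adjusted p = 0.0175 and 0.0314), and limma-voom 0.

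Against cfos, the pathway genes with the smallest p below 0 were Itsn1, an endocytic scaffold, and the dynamin Dnm3. Itsn1 averaged 29.7 CPM in overlap and 143 CPM in cfos (log2 fold change -2.26, SE 0.78). Dnm3 averaged 184 CPM in overlap and 442 CPM in cfos (log2 fold change -1.26, SE 0.41). Those above 0 were the SNAREs Vamp8 (3.11, SE 1.90) and Snap23 (2.13, SE 1.49), both known from non-neuronal secretion. Between cfos and mCherry, Stx2 had a log2 fold change of 4.35 (SE 1.56), Svop, a vesicle transporter-like protein, -2.90 (SE 1.22) and Ap2b1, another AP-2 subunit, -0.98 (SE 0.55). None of them passed after adjustment by edgeR. DESeq2 called 1 of the 56 in overlap against cfos, Itsn1 (adjusted p = 0.0452, up to 0.593 over the alternatives). In cfos against mCherry it called Svop (0.0184, up to 0.668), and limma-voom called Stx2 (0.0176, up to 0.714). The calls over all genes are given at the end. The synaptotagmin Syt13, named after its values were seen, was at 7.24, 9.07 and 6.32 CPM in overlap, 49.1 and 38.4 CPM in cfos, and 24.5, 28.3 and 21.5 CPM in mCherry, on 3 to 5 counts in overlap. Overlap lay below both groups (log2 fold change -2.51, SE 1.06, against cfos and -1.70, SE 0.98, against mCherry).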

How the data were processed

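Per the labels' protocols, laser-captured cells were lysed in the tube and made into Smart-3SEQ libraries. The authors deposited raw counts per gene for 9 columns. Per the submitters' processing notes, the tools were Trim Galore, STAR, UMI-tools and featureCounts with build mm10. The sources used here give no versions, annotation or strand setting, nor how molecular identifiers were used. Antisense neighbours therefore cannot be told apart, and intervals cover counting error only.

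The columns cfos 2 and cfos 3 were replaced by their rounded mean. Genes were filtered with filterByExpr by group, library sizes were summed over the tested genes and scaled by TMM, and all groups were fitted together with edgeR 4.0.16 (robust quasi-likelihood, Benjamini-Hochberg over 16410 genes, threshold 0.05, biological coefficient of variation 0.958). The SE was derived from the fold change and its F statistic. DESeq2 1.42.0 and limma 3.58.1 (voom with sample weights) were alternatives. The fit was tested on simulated data with a spread far below that of these libraries, which checks the code and not the power. Gene positions came from GENCODE M21, to which 54723 identifiers matched. Library sizes over the tested genes were chosen after a first fit had been seen.

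Named genes were those with an unadjusted p under 0.05 in a comparison or among the 6 highest mean CPM. Members and lists were chosen with earlier results of these data known.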

Additional observations from a re-analysis of the deposited data

How the results depend on the processing

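With 0 genes and 0 vesicle genes called by edgeR, other settings called more. Without a count filter, 484, 214 and 1197 genes passed in overlap against mCherry, overlap against cfos and cfos against mCherry, with 1 vesicle gene (Syt1, overlap against cfos). DESeq2 called 879, 871 and 1521 of 16410 genes and 3, 5 and 2 of the 34 vesicle genes in the same order. Of the 56 other pathway genes it called 3, 1 and 2. Without mCherry 2 (chosen after seeing the data) it called 123, 391 and 533 of 15274 genes, with 1 vesicle gene in overlap against cfos. Of the 52 other pathway genes then tested it called 1, 0 and 1. Limma-voom called 1318 of the 16410 genes, 0 vesicle genes and 3 of the 56 other pathway genes in overlap against mCherry. In cfos against mCherry it called 2138 genes, 3 vesicle genes and 9 of the 56. All 9 columns as samples gave 15 genes in overlap against cfos and 247 in cfos against mCherry. Leaving out 1 replicate gave 0 calls in each comparison. The cause of these differences was not tested.

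The vesicle-gene median ranged over left-out replicates between -0.85 (without cfos 2+3; -0.84 without mCherry 2) and -0.39 (without overlap 1) for overlap against mCherry, between -1.25 and -0.98 for overlap against cfos, and between 0.12 and 0.66 for cfos against mCherry. In the last it was 0.16 by limma-voom and 0.17 by limma-voom without mCherry 2. Library sizes over all genes moved the median of all genes in overlap against mCherry to -0.08, from 0.09.

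For the 15 named vesicle genes in each comparison and the named pathway genes, 57 pairs of a gene and a comparison, 32 of 1019 alternative values changed sign, in Nsf, Syt11, Rab3c, Syn2, Syn3, Synj1, Sncb and Syngr1. Nsf ranged over left-out replicates between -0.44 and 0.0112 for overlap against mCherry and between -0.37 and 0.66 for cfos against mCherry. Syt11 ranged between -0.43 and 0.30 for overlap against mCherry, between -0.64 and 0.37 for overlap against cfos and between -0.62 and 0.56 for cfos against mCherry. In the last it was -0.14 without mCherry 1, -0.0101 with size factors, -0.0096 by DESeq2 and -0.0386 by DESeq2 without mCherry 2. Rab3c in cfos against mCherry ranged between -0.36 and 0.28. It was -0.0333 with size factors, -0.0679 with library sizes over all genes, -0.0358 by DESeq2, -0.24 by limma-voom, -0.0321 with all 9 columns, -0.13 by DESeq2 without mCherry 2 and -0.45 by limma-voom without mCherry 2. In overlap against mCherry, Syn2 ranged over left-out replicates between -0.29 and 0.31, Syn3 was 0.59 by limma-voom without mCherry 2 and Synj1 was -0.0048 by limma-voom. In cfos against mCherry, Sncb ranged between -0.12 and 0.21 and was -0.0055 with library sizes over all genes, -0.16 by limma-voom and -0.17 by limma-voom without mCherry 2. Syngr1 in that comparison ranged between -0.39 and 0.57 (0.45 without mCherry 1) and was -0.35 by limma-voom and -0.33 without mCherry 2.

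Same-numbered deviations from the group means correlated between -0.057 and 0.059 across groups, and different-numbered ones between -0.058 and 0.063. This gave no sign of pairing by replicate number. With 3 columns per group, of which cfos 2 and cfos 3 were nearly alike, the check cannot exclude pairing. With the replicate number as a block, 0 genes passed in each comparison and the medians were -0.70, -1.17 and 0.41 for overlap against mCherry, overlap against cfos and cfos against mCherry. With the block, Syt11 was 0.0085 for overlap against mCherry and Rab3c -0.0853 for cfos against mCherry. Depth limits the rarer genes: overlap libraries held 7 to 12 counts of Cplx1 and 0 to 5 of Amph.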
